A study of Mus musculus with 6 samples.

Results

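The 148 genes described here are the variable and joining segments of the T cell receptor loci that reached 10 raw counts summed over 6 libraries of sorted mouse regulatory T cells (Tregs). They were chosen by gene symbol and by that summed count, from 258 segment rows among the 51361 genes of the count table. Of the other rows, 45 held 1 to 9 counts and 65 stood at 0. The members were 70 Trav, 29 Traj, 22 Trbv, 14 Trbj, 5 Trgv, 3 Trgj, 4 Trdv and 1 Trdj segments. The members nearest above the threshold included Traj30 and Traj37 with 10 counts each, and the rows nearest below it included Traj39 and Traj53 with 9 counts each. Because the sham libraries held the most segment reads, 41 members stayed under 10 counts in the 4 libraries of operated mice together and reached the threshold only with the sham counts. In the other direction, 15 members held under 10 counts in the 2 sham libraries.

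The study sorted CD4+CD25+Foxp3+ cells from young male mice, 9 weeks old and of C57BL/6N background. The tMCAO libraries were taken 14 days after surgery, and no day was recorded here for the sham libraries. Every mouse, sham controls included, carried the transgene Tg(Foxp3-DTR/EGFP)23.2Spar, which places a diphtheria toxin receptor fused to green fluorescent protein under control of Foxp3, the master transcription factor of Tregs. The groups were tMCAO brain and tMCAO blood, taken from mice whose middle cerebral artery had been blocked for 60 min and reopened (transient middle cerebral artery occlusion, a stroke model), and sham blood, taken from mice given a sham operation, with 2 libraries each. Each library came from 500 to 1000 cells, and the sources used here do not tell if both libraries of a group stem from different animals. P-values therefore reflect library-to-library spread alone, and that spread may be technical.

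A T cell receptor is built by joining a variable to a joining segment in each developing T cell, with a diversity segment between them in the beta and delta chains. The rearranged exon is then spliced to a constant gene, Trac for the alpha chain, Trbc1 or Trbc2 for the beta chain, Trdc for the delta chain and Trgc genes for the gamma chain. Most T cells, Tregs among them, carry an alpha-beta receptor, and a smaller lineage carries a gamma-delta receptor. A polyclonal population draws on many variable segments, an expanded clone on a single pair of rearrangements, and lineages such as invariant natural killer T cells or some gamma-delta T cells use fixed segments. The delta locus lies inside the alpha locus on chromosome 14, the beta locus is on chromosome 6 and the gamma locus on chromosome 13.

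The sequences below belong to the segments that led their classes or that set a library apart, as annotated by GENCODE M21 on GRCm38. Joining segments are shown whole, with capitals on the codons of the Phe-Gly-X-Gly motif that follows the antigen-binding loop. Traj18 lies at chr14:54200777-54200842, Traj27 at chr14:54192303-54192361, Traj19 at chr14:54200386-54200446, Trbj1-1 at chr6:41533864-41533911, Trbj1-2 at chr6:41534001-41534048 and Trbj2-7 at chr6:41543810-41543856, all on the plus strand.
Traj18: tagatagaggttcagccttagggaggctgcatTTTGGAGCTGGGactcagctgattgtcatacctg
Traj27: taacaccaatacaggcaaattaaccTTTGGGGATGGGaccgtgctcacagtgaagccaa
Traj19: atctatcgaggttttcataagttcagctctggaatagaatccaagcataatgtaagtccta
Trbj1-1: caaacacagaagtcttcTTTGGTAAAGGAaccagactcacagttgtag
Trbj1-2: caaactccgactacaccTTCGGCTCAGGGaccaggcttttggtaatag
Trbj2-7: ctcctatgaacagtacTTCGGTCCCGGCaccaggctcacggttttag

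Traj19 carries no such codons, although it held a mean share of the Traj counts below Traj18 and Traj27 alone. For variable segments the last 60 bases of the annotated transcript are shown, with capitals on the TGT codon of the conserved cysteine at which that loop begins. Trbv13-1 (chr6:41116007-41116468), Trbv13-2 (chr6:41121396-41121832) and Trbv13-3 (chr6:41130147-41130585) form the family with the largest beta share in blood of operated mice. Trgv6 (chr13:19190356-19190929) and Trdv4 (chr14:54074905-54075515) held most of the gamma and delta variable counts of the library tMCAO brain 2. All 5 genes are on the plus strand.
Trbv13-1: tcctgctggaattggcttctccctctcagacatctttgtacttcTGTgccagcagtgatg
Trbv13-2: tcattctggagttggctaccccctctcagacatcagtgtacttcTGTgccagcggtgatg
Trbv13-3: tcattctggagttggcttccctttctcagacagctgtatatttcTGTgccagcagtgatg
Trgv6: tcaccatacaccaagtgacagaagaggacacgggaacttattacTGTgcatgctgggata
Trdv4: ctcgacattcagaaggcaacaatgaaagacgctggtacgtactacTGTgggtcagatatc

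The 3 Trbv13 segments look alike at this end, but no 75-base window, the read length of the study, is shared between any pair of them. How far a segment can be counted depended on such windows. Windows were compared among the annotated transcripts of the segments alone, not with the rest of the genome. All windows of the 22 Trbv members were found in no other segment. The joining segments are shorter than 75 bases and hold no such window, so a read that covers one also reaches beyond it. The Trav locus contains duplicated blocks, whose copies carry a d or an n in their names. Of the 52 Trav rows at 0 counts, 39 had no unique 75-base window, against 0 of the 70 Trav members, whose median was 78.8% of windows unique. A Trav row at 0 is therefore not a measure of an unused segment.

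Total counts per library ranged from 14348179 to 24460894. All 6 Treg markers on the list were above 0 in every library, but their summed share of all counts was 0.00651% and 0.0601% in tMCAO brain libraries, 0.0173% and 0.116% in tMCAO blood libraries and 0.175% and 0.185% in sham libraries. Foxp3 itself had 12 and 480 counts in tMCAO brain libraries, 10 and 104 in tMCAO blood libraries and 780 and 863 in sham libraries. In tMCAO blood 2, Ikzf2 held 8776 of the 19383 counts of the Treg list. A list of 10 general T cell genes, also all detected everywhere, made up 0.0157% and 0.100% of counts in tMCAO brain libraries, 0.0416% and 0.263% in tMCAO blood libraries and 0.560% and 0.577% in sham libraries. All 7 monocyte and macrophage markers were detected in every library, at 2.97% and 1.16% of counts in tMCAO brain libraries, 2.45% and 0.857% in tMCAO blood libraries and 0.694% and 0.546% in sham libraries. Within each group of operated mice the library with more monocyte message, number 1, had less T cell message. The 8 microglia markers summed to 0.639% and 0.691% in tMCAO brain, and stayed at or below 0.0266% in the blood libraries, where Sall1 was at 0 throughout. The 6 red cell markers went the other way, with 15.06% and 16.37% of counts in sham libraries. They held 0.1069% and 3.798% in tMCAO blood libraries, and 16 and 0 counts in tMCAO brain libraries. All these counts are part of the library totals to which segment counts are scaled below. The part of these other cells in the results below was not tested.

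Segment message was far scarcer in both groups of operated mice than in sham blood. The 148 segments together held 443 and 4467 counts in tMCAO brain libraries, 887 and 3196 in tMCAO blood libraries and 14901 and 15659 in sham libraries. Scaled to the library total as CPM (counts in each 1000000) this was 22.3 and 183 in tMCAO brain libraries, 45.9 and 192 in tMCAO blood libraries and 979 and 1091 in sham libraries. The sham libraries lay close together and above all 4 others, while the libraries of each operated group lay several-fold apart. The difference from sham blood in mean log2 CPM was -4.02 for tMCAO brain and -3.46 for tMCAO blood. With 2 libraries a group, an exact two-sided permutation test cannot go below p = 0.333, which both differences reached, and tMCAO brain and tMCAO blood overlapped (difference -0.56, exact p = 0.667). In bulk RNA, fewer T cells in a library and less receptor message per cell cannot be told apart.

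**Figure D1:**
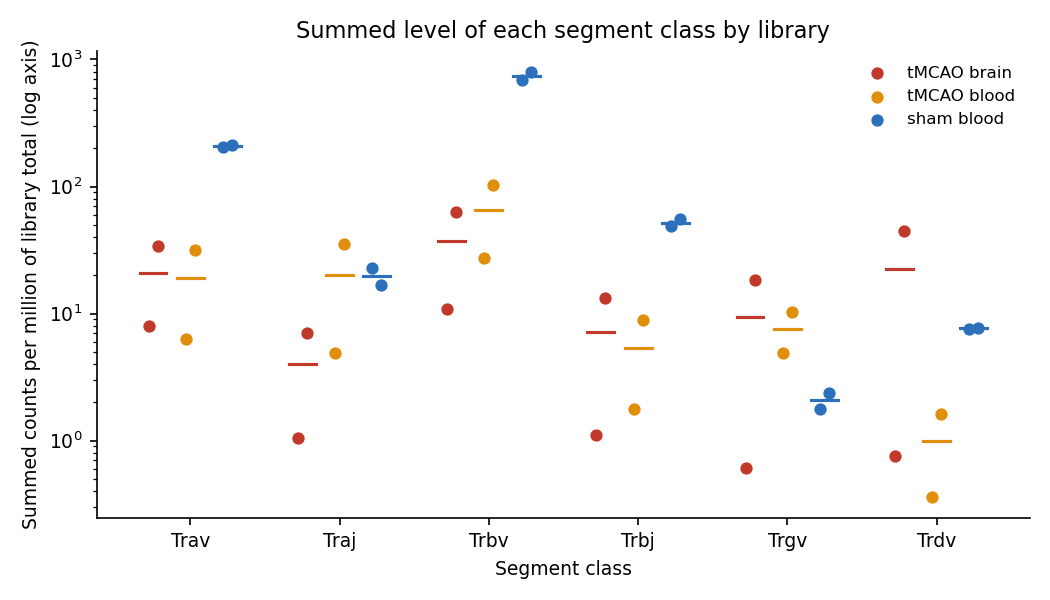
Summed CPM (log axis) for 6 segment classes, with a point per library and a bar at the arithmetic mean of the 2 libraries of each group, tMCAO brain leftmost and sham blood rightmost. Sham blood is highest for Trav, Trbv and Trbj, whereas Trgv is lowest in tMCAO brain 1 and then in the sham libraries, and Trdv is highest in tMCAO brain 2.

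The classes did not all follow this order. Trbv counts, the largest class, were 215 and 1554 in tMCAO brain libraries, 527 and 1715 in tMCAO blood libraries and 10521 and 11434 in sham libraries. Trav counts were 158 and 826 in tMCAO brain libraries, 122 and 524 in tMCAO blood libraries and 3127 and 3020 in sham libraries. Both variable classes of the alpha-beta receptor thus stood lower in every library of operated mice than in either sham library, also in CPM. Traj counts were 21 and 171 in tMCAO brain libraries, 94 and 588 in tMCAO blood libraries and 345 and 239 in sham libraries. On the CPM scale Traj stood at 1.06 and 6.99 in tMCAO brain libraries, 4.87 and 35.3 in tMCAO blood libraries and 22.7 and 16.7 in sham libraries. Here the second tMCAO blood library exceeded both sham libraries, and the groups overlapped. Trgv counts were 12 and 448 in tMCAO brain libraries, 94 and 171 in tMCAO blood libraries and 27 and 34 in sham libraries. In CPM, both tMCAO blood libraries (4.87 and 10.3 CPM) were above both sham libraries (1.77 and 2.37 CPM).

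The constant genes gave a second scale, since a rearranged receptor transcript carries a variable, a joining and a constant part. Trac held 537 and 3341 counts in tMCAO brain libraries, 1179 and 6309 in tMCAO blood libraries and 11984 and 10346 in sham libraries. Trbc1 held 361 and 2336 counts in tMCAO brain libraries, 1296 and 5846 in tMCAO blood libraries and 13125 and 11477 in sham libraries. Trbc2 held 393 and 3594 counts in tMCAO brain libraries, 1582 and 11966 in tMCAO blood libraries and 18015 and 13318 in sham libraries. All 3 constant genes were therefore lowest in tMCAO brain 1 and highest in sham blood, like the segments. None passed edgeR's quasi-likelihood test with Benjamini-Hochberg adjustment in any comparison (smallest adjusted p = 0.0544, Trbc1, tMCAO brain against sham blood).

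Relative to the constant genes, blood of operated mice stood apart. There were 29.4 and 24.7 Trav counts per 100 Trac counts in tMCAO brain libraries and 10.4 and 8.31 in tMCAO blood libraries, against 26.1 and 29.2 in sham libraries. Trbv counts per 100 counts of Trbc1 and Trbc2 were 28.5 and 26.2 in tMCAO brain libraries and 18.3 and 9.63 in tMCAO blood libraries, against 33.8 and 46.1 in sham libraries. Trbj counts on the same scale were 2.92 and 5.50 in tMCAO brain libraries and 1.18 and 0.831 in tMCAO blood libraries, against 2.38 and 3.20 in sham libraries. In all 3 classes both tMCAO blood libraries lay below all 4 others. Traj went the other way, with 3.91 and 5.12 counts per 100 Trac counts in tMCAO brain libraries and 7.97 and 9.32 in tMCAO blood libraries, against 2.88 and 2.31 in sham libraries. Per 100 Trav counts there were 13.3 and 20.7 Traj counts in tMCAO brain libraries and 77.1 and 112 in tMCAO blood libraries, against 11.0 and 7.91 in sham libraries. Summed over all 148 segments, the level per constant count was 2.31-fold lower in tMCAO blood relative to sham blood (exact permutation p = 0.333). On this sum tMCAO brain and sham blood differed by 0.05 on the log2 scale (exact permutation p = 1.000). The sum includes gamma and delta segments, whereas the constant count is that of Trac, Trbc1 and Trbc2 alone. Gamma and delta segments made up 6.10% and 35.6% of segment counts in tMCAO brain libraries, against 1.13% and 1.10% in sham libraries. In tMCAO blood libraries they made up 12.4% and 6.92%. These summed values therefore do not compare the alpha-beta segments alone.

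**Figure D2:**
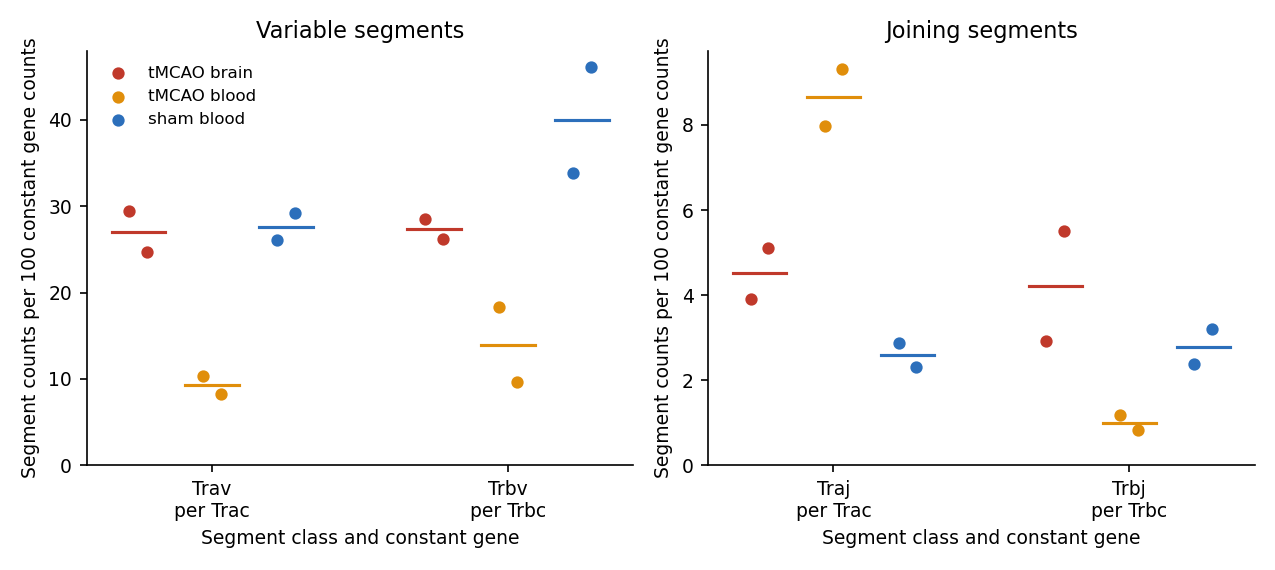
Segment counts per 100 constant gene counts for variable segments (left) and joining segments (right), with a point per library and a bar at the mean of each group; Trbc stands for Trbc1 plus Trbc2. In tMCAO blood Trav, Trbv and Trbj per constant count lie below the other groups and Traj lies above them.

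For single genes, edgeR tested 16657 genes over all 6 libraries, among them 110 of the 148 members. The 38 others, 21 of them Traj, did not pass its filter on low counts. In tMCAO brain against tMCAO blood 0 members passed in either direction by edgeR, where 3.53% of all genes were called higher and 1.37% lower. At an unadjusted p under 0.05 there were 22 of the 110 tested. The share of all genes at that level was not counted, so this number has no background to be read against. DESeq2 called 5 members higher and 9 lower, where it called 11.5% of all genes higher and 6.69% lower, and limma-voom called 0, where it called 5.99% higher and 2.7% lower. In tMCAO blood against sham blood, 13 members were called lower and 0 higher, or 11.8% of those tested, where 3.15% of all genes were called lower and 4.33% higher. In tMCAO brain against sham blood, 18 members were called lower and 0 higher, or 16.4%, where 2.62% of all genes were called lower and 8.01% higher. The median log2 fold change of the 110 members was -3.54 in tMCAO brain against sham blood, or -3.45 with members at 0 in a group set at their bound, beside 0.09 over all genes. In tMCAO blood against sham blood it was -3.71, or -3.47 with bounds, beside 0.11 over all genes. The last 2 comparisons share the sham libraries, so their values stand side by side and are not independent. Leaving out sham blood 1 or sham blood 2 left 0 calls over all genes in both. The calls in tMCAO blood against sham blood were also all lost without tMCAO blood 1. In each comparison the number of members called changed with the library left out. Where such a fit left 1 library in a compared group, the members called in it are not counted. Fits without a library of the group not compared are given with the other alternatives below.

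Most of the tested members lay lower without overlap. In tMCAO blood against sham blood, 98 of the 110 had both tMCAO blood libraries below both sham libraries, where 30.4% of all tested genes did, and 2 lay above, where 33.6% of all genes did. Likewise 99 lay below in tMCAO brain against sham blood, where 29.7% of all genes did, and 1 above, where 34.9% did. In tMCAO brain against tMCAO blood, 13 lay above and 17 below, where 31.4% and 25.9% of all genes did. With only the tMCAO brain and tMCAO blood libraries fitted, 43 members passed the filter, so many of the 110 entered through their sham counts. The counts without overlap describe members selected in that way and add nothing to the test. The same limit holds for the calls and medians against sham blood in the fit of all 6 libraries, which rest on those 110 members. Scaling the same fit to Trac, Trbc1 and Trbc2 in place of whole libraries moved the median of all genes to 2.87 in tMCAO blood against sham blood, 4.38 in tMCAO brain against sham blood and 1.57 in tMCAO brain against tMCAO blood. The median of the members on that scale was -1.79 in tMCAO blood against sham blood, -0.04 in tMCAO brain against sham blood and 1.52 in tMCAO brain against tMCAO blood. On that scale Trav17 was the 1 member called lower in tMCAO brain against sham blood, where 0.33% of all genes were, and 4 members (Trav13n-4, Trgv2, Trgv4 and Trdv4) were called higher, where 67.3% of all genes were. In tMCAO blood against sham blood 0 members were called in either direction, where 0% of all genes were called lower and 5.77% higher. Between tMCAO brain and tMCAO blood 1 member, Trdv4, was called higher, where 2.53% of all genes were, and 0 lower, where 0.126% were.

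Trbv segments encode the beta variable domain, and 13 of the 22 were called lower in tMCAO brain and 8 of 22 in tMCAO blood, each against sham blood. The shares of all genes called lower were 2.62% in tMCAO brain and 3.15% in tMCAO blood. Of 22 Trbv genes that GENCODE annotates as functional, 21 were members, and Trbv21 had 9 counts; of 13 annotated pseudogenes, Trbv24 was the only member, with 122 counts, and the others had at most 6. The median log2 fold change of the class was -4.35 in tMCAO brain and -4.14 in tMCAO blood against sham blood. Trbv31, the segment downstream of the constant genes that joins by inversion, had 21 and 54 counts in tMCAO brain libraries, 55 and 77 in tMCAO blood libraries and 714 and 1126 in sham libraries. It fell 33.8-fold in tMCAO brain (log2 -5.15, SE 0.50, edgeR adjusted p = 0.00893) and 18.1-fold in tMCAO blood (log2 -4.20, SE 0.47, adjusted p = 0.0313). Trbv1 had 23 and 33 counts in tMCAO brain libraries, 46 and 184 in tMCAO blood libraries and 1080 and 725 in sham libraries. It fell 44.4-fold in tMCAO brain (edgeR adjusted p = 0.0140) and 10.2-fold in tMCAO blood (edgeR adjusted p = 0.0387).

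Further beta variable segments changed in both groups. Trbv12-1 had 30 and 53 counts in tMCAO brain libraries, 22 and 46 in tMCAO blood libraries and 494 and 652 in sham libraries (edgeR adjusted p against sham blood 0.0114 in tMCAO brain and 0.0313 in tMCAO blood). Trbv26 had 2 and 2 counts in tMCAO brain libraries, 5 and 34 in tMCAO blood libraries and 281 and 285 in sham libraries (edgeR adjusted p 0.0155 in tMCAO brain and 0.0442 in tMCAO blood). Trbv16 had 26 and 80 counts in tMCAO brain libraries, 11 and 58 in tMCAO blood libraries and 600 and 672 in sham libraries (edgeR adjusted p 0.0301 in tMCAO brain and 0.0363 in tMCAO blood). In each of these genes the sham libraries lay close together and far above the rest. Trbv29 fell 11.0-fold in tMCAO brain and 16.7-fold in tMCAO blood. Trbv4 had 2 and 4 counts in tMCAO brain libraries, 1 and 1 in tMCAO blood libraries and 44 and 23 in sham libraries, and its 43.4-fold lower level in tMCAO blood has an exact 95% counting interval of 11.6 to 366. Trbv4 lies within the noncoding gene 5830405F06Rik on the same strand, which had at most 7 counts in any library.

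Other Trbv calls were made in tMCAO brain against sham blood. Trbv13-1 had 7 and 27 counts in tMCAO brain libraries and 53 and 231 in tMCAO blood libraries, against 541 and 821 in sham libraries (55.1-fold lower in tMCAO brain, edgeR adjusted p = 0.0179). Trbv19 had 3 and 77 counts in tMCAO brain and 944 and 1125 in sham blood (35.6-fold lower, edgeR adjusted p = 0.0404). Trbv20 had 1 and 32 counts in tMCAO brain and 452 and 356 in sham blood (33.7-fold lower, edgeR adjusted p = 0.0376). The 2 brain libraries of these genes differ by several-fold. Trbv30 had 0 counts in both brain libraries and 22 and 21 in sham blood, at least 19.7-fold lower with the group set at 3 counts (edgeR adjusted p = 0.0319). Whether a segment differed in tMCAO brain and not in tMCAO blood was tested only by the direct comparison of those groups, in which edgeR called none and the other tools gave the counts above.

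Usage within the Trbv class, the share of its counts, shifted between libraries as well. Trbv13-3 took 6.05% and 20.5% of Trbv counts in tMCAO brain libraries, 19.4% and 10.6% in tMCAO blood libraries and 9.11% and 9.44% in sham libraries. Trbv13-2 took 7.91% and 7.40% in tMCAO brain libraries, 16.3% and 17.8% in tMCAO blood libraries and 9.47% and 7.57% in sham libraries. With Trbv13-1, the family held 17.2% and 29.6% in tMCAO brain libraries and 45.7% and 41.9% in tMCAO blood libraries, against 23.7% and 24.2% in sham libraries. The tMCAO blood libraries were above all 4 others, and their distance from sham blood was larger than the spread within either blood group. Trbv1 took 10.7% and 2.12% in tMCAO brain libraries, 8.73% and 10.7% in tMCAO blood libraries and 10.3% and 6.34% in sham libraries. Divided by annotated length, Trbv13-3, Trbv13-2 and Trbv1 were again the 3 with the highest mean share.

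**Figure D3:**
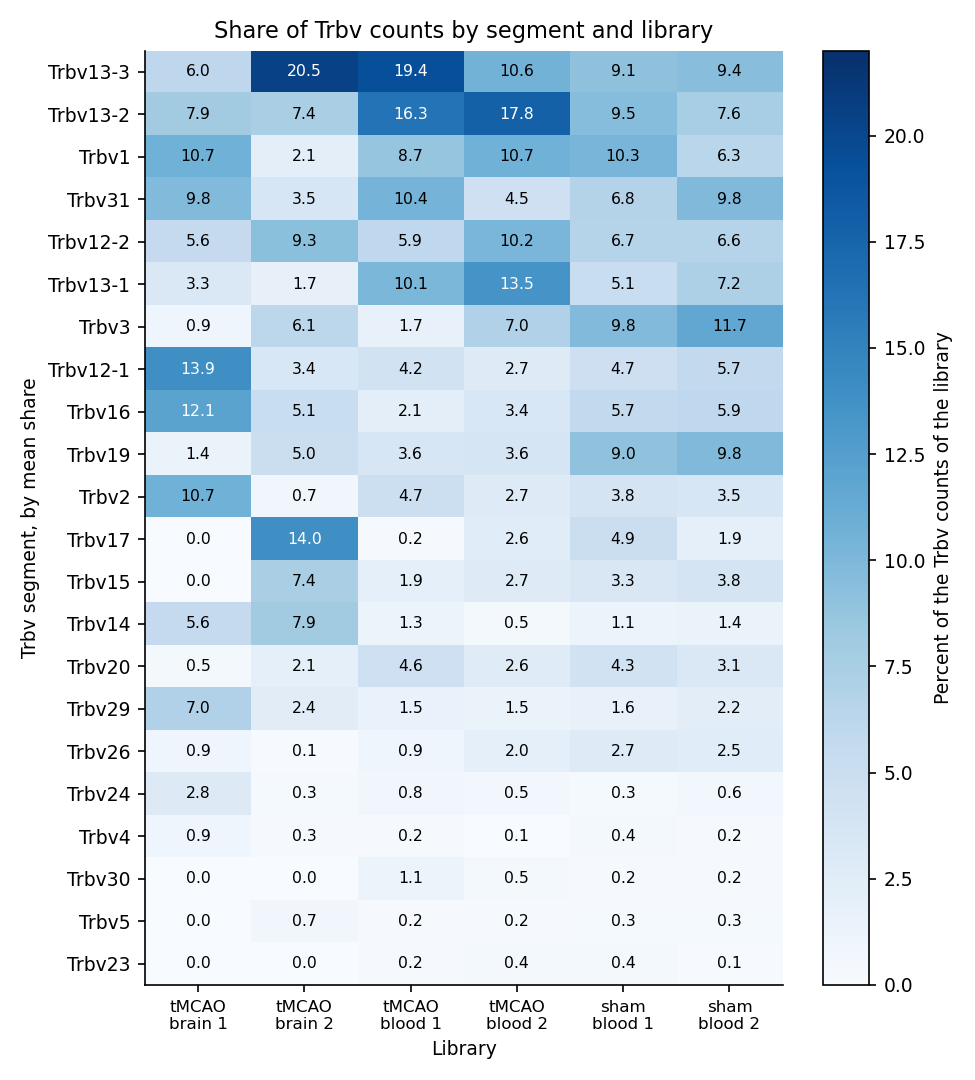
Percent of the Trbv counts of each library (columns, with tMCAO brain, tMCAO blood and sham blood from left to right) taken by each of the 22 Trbv members (rows, by mean share). The sham columns resemble each other, the brain columns differ, and Trbv13-2 takes 16.3% and 17.8% in tMCAO blood.

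The segment with the highest share differed from library to library. In tMCAO brain it was Trbv12-1 with 14.0% (95% Wilson interval 9.95 to 19.2) and Trbv13-3 with 20.5% (18.5 to 22.5), in tMCAO blood Trbv13-3 with 19.4% (16.2 to 22.9) and Trbv13-2 with 17.8% (16.1 to 19.7), and in sham blood Trbv1 with 10.3% (9.70 to 10.9) and Trbv3 with 11.7% (11.1 to 12.3). The kits amplify without molecular identifiers, so these intervals cover counting error only. The leading shares in tMCAO brain 2 and both tMCAO blood libraries were above those of sham blood beyond that error. Trbv3 itself took 0.930% and 6.11% of Trbv counts in tMCAO brain libraries, 1.71% and 6.997% in tMCAO blood libraries and 9.76% and 11.7% in sham libraries.

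The effective number of segments, the inverse of the Simpson index corrected for sample size, states how many equally used segments would give the same concentration. For Trbv it was 11.7 and 10.03 in tMCAO brain libraries, 9.65 and 10.4 in tMCAO blood libraries and 14.2 and 13.7 in sham libraries. Both operated groups lay below sham blood without overlap (mean differences -3.07 in tMCAO brain and -3.89 in tMCAO blood, exact permutation p = 0.333 each). At an equal depth of 215 counts the expected number of different Trbv segments was 17.0 and 17.8 in tMCAO brain libraries, 19.3 and 19.0 in tMCAO blood libraries and 19.4 and 19.1 in sham libraries. On that measure tMCAO blood and sham blood lay close together. Over every Trbv row with a count, at 218 counts, the expected numbers were 19 and 18.1 in tMCAO brain libraries, 19.4 in both tMCAO blood libraries, and 19.5 and 19.4 in sham libraries.

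Trav segments, which encode the alpha variable domain, were spread more widely. Of 70 members, 24 and 48 were detected in tMCAO brain libraries and 31 and 46 in tMCAO blood libraries, against 69 in each sham library. The choice of members bears on these numbers, since 22 of the 70 had under 10 counts in the 4 libraries of operated mice together. In both brain libraries 15 Trav members stood at 0, and in both tMCAO blood libraries 18 did. The effective number was 16.2 and 25.4 in tMCAO brain libraries, 21.2 and 30.6 in tMCAO blood libraries and 39.8 and 35.7 in sham libraries (mean differences from sham blood -17.0 and -11.8, exact permutation p = 0.333 each). At an equal depth of 122 counts, 22.9 and 35.5 segments were expected in tMCAO brain libraries, 31.0 and 37.2 in tMCAO blood libraries and 46.4 and 44.3 in sham libraries. Over every Trav row with a count, with no minimum, and at 123 counts, the expected numbers were 22.9 and 35.6 in tMCAO brain libraries, 32 and 37.7 in tMCAO blood libraries, and 46.96 and 44.7 in sham libraries. On each of these measures all 4 libraries of operated mice lay below both sham libraries. Merging the d and n copies kept that order (differences -11.1 and -6.18).

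The leading alpha variable segments changed between libraries. Trav9-1 led in tMCAO brain 1 with 12.7% of Trav counts and took 5.21% in tMCAO brain 2, 0.820% and 1.34% in tMCAO blood libraries, and 2.46% and 2.38% in sham libraries. Trav12-2 took 0% and 6.17% in tMCAO brain libraries and 4.92% and 0.573% in tMCAO blood libraries, against 6.36% and 6.52% in the sham libraries, where it led. Trav14-1, next by mean share, took 9.49% and 0.484% in tMCAO brain libraries, 4.92% and 1.15% in tMCAO blood libraries and 3.26% and 5.07% in sham libraries. Trav21-dv12 led in tMCAO brain 2 with 8.23%, Trav6-3 in tMCAO blood 1 with 10.7% and Trav3-3 in tMCAO blood 2 with 8.02%. The brain 1 and tMCAO blood 1 values rest on 158 and 122 Trav counts. Per annotated length, Trav7-1 had the highest mean share, before Trav9-1 and Trav14-1.

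Among the 59 Trav members tested, 5 were called lower in each group of operated mice against sham blood. Of all genes, 2.62% were called lower in tMCAO brain and 3.15% in tMCAO blood. Trav17 had 0 counts in both brain libraries, 2 and 9 in tMCAO blood libraries and 116 and 96 in sham libraries. It was at least 97.3-fold lower in tMCAO brain (floor of 3 counts in the group, edgeR adjusted p = 0.0197) and did not pass in tMCAO blood (edgeR adjusted p = 0.0513). Trav12-1 had 3 and 4 counts in tMCAO brain, 0 in both tMCAO blood libraries and 45 and 21 in sham blood, at least 28.5-fold lower in tMCAO blood (edgeR adjusted p = 0.0387). Trav7-6 had 0 counts in tMCAO brain libraries, 1 and 12 in tMCAO blood libraries and 52 and 29 in sham libraries, at least 37.2-fold lower in tMCAO brain (edgeR adjusted p = 0.0497). Trav14-1, Trav14n-3 and Trav14d-3-dv8, of a single family with copies in the duplicated blocks, were called in both groups, and Trav9-1 in tMCAO blood (edgeR adjusted p = 0.0465). Only 61.7% of the 75-base windows of Trav14n-3 are unique, and 59.0% of those of Trav9-1, so reads may be split between copies.

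**Figure D4:**
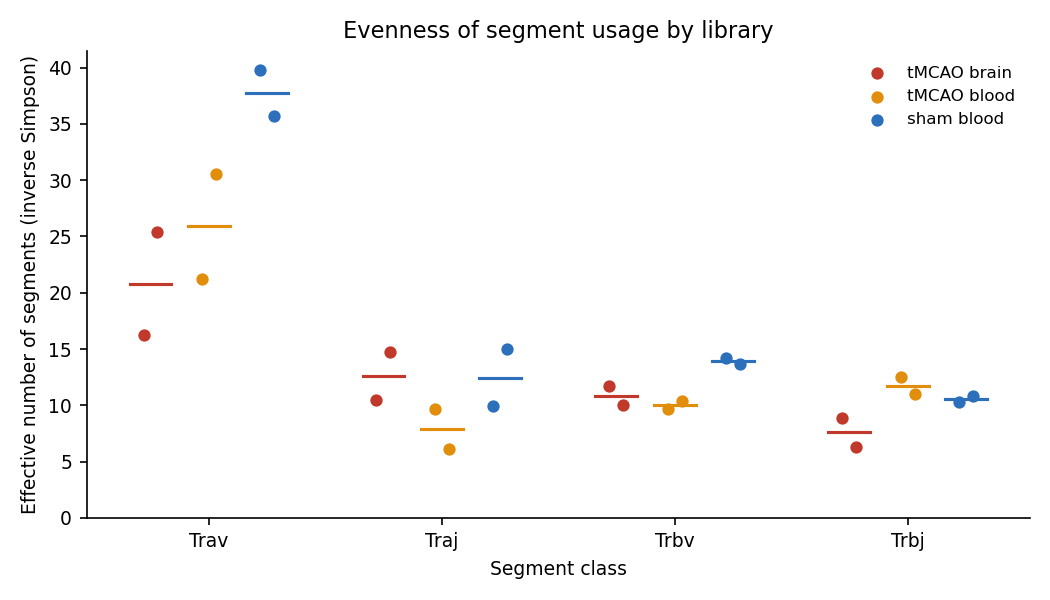
Effective number of segments (inverse Simpson index) within Trav, Traj, Trbv and Trbj, with a point per library and a bar at the mean of each group, tMCAO brain leftmost and sham blood rightmost. The Trav and Trbv values of sham blood (39.8 and 35.7, and 14.2 and 13.7) lie above all others of their class.

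Traj segments, of which the alpha locus holds a long row upstream of Trac, overlapped in level between tMCAO blood and sham blood, and 3 of the 29 members held a large share of their counts in every library. Traj18, Traj27 and Traj19 together took 42.9% and 35.7% of Traj counts in tMCAO brain libraries, 43.6% and 62.9% in tMCAO blood libraries and 45.8% and 34.7% in sham libraries. Traj18 had 3 and 26 counts in tMCAO brain libraries, 23 and 177 in tMCAO blood libraries and 70 and 34 in sham libraries. Traj27 had 4 and 17 counts in tMCAO brain libraries, 14 and 130 in tMCAO blood libraries and 68 and 37 in sham libraries. Traj19 had 2 and 18 counts in tMCAO brain libraries, 4 and 63 in tMCAO blood libraries and 20 and 12 in sham libraries. For all 3 genes tMCAO blood 2 held the highest count. Traj14, an annotated pseudogene, led tMCAO brain 1 jointly with Traj27, each with 4 of 21 counts (19.0%, Wilson interval 7.67 to 40.0). No Traj member was called among the 8 tested, and their median log2 fold change was 0.06 in tMCAO blood against sham blood, where it was -4.14 for Trbv.

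The motif seen in the sequences above, searched for in that exact form, was absent from some of the counted segments. Whether it goes with segment use was not tested. Of 60 annotated Traj segments 43 hold Phe-Gly-X-Gly codons, as do 23 of the 29 members. The 6 members without them, Traj19 and Traj33 among them, took 28.6% and 27.5% of Traj counts in tMCAO brain libraries, 22.3% and 23.3% in tMCAO blood libraries and 16.2% and 20.5% in sham libraries. Gene counts do not separate rearranged from unrearranged transcripts. Segments numbered 30 and higher, which lie farther from Trac, took 14.3% and 9.36% in tMCAO brain libraries, 14.9% and 13.4% in tMCAO blood libraries and 12.2% and 14.6% in sham libraries. The effective number of Traj segments was 10.5 and 14.8 in tMCAO brain libraries, 9.71 and 6.14 in tMCAO blood libraries and 9.93 and 14.97 in sham libraries. By this measure the tMCAO blood libraries were lowest (mean difference from sham blood -4.52, exact permutation p = 0.333), and tMCAO brain and sham blood overlapped. By the exponential of Shannon entropy tMCAO brain 1, with 21 counts in 9 segments, was lowest at 7.93, against 17.4 in tMCAO brain 2, 12.4 and 9.50 in tMCAO blood libraries, and 15.2 and 19.6 in sham libraries.

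Traj18 also forms the invariant receptor of natural killer T cells with Trav11, and Traj33 that of mucosal-associated invariant T cells with Trav1. Traj33 had 0 and 8 counts in tMCAO brain libraries, 2 and 40 in tMCAO blood libraries and 6 and 6 in sham libraries. Trav1 had 0 and 5 counts in tMCAO brain libraries, 3 and 1 in tMCAO blood libraries and 27 and 8 in sham libraries. Trav11 had 0 counts in all libraries except sham blood 2, where it had 1, and it is not a member. It has no unique 75-base window, so its reads could not be told from those of its copies, and no level can be given for it. Zbtb16, the transcription factor of both lineages, had 36 and 30 counts in tMCAO brain libraries, 321 and 260 in tMCAO blood libraries and 15 and 20 in sham libraries. The natural killer marker Klrb1c had 10 and 988 counts in tMCAO brain libraries, 177 and 786 in tMCAO blood libraries and 54 and 97 in sham libraries. The natural killer T cell list, with 3 of 4 markers detected in every library and 4 in sham blood 2, summed to 49 and 1044 counts in tMCAO brain libraries, 521 and 1223 in tMCAO blood libraries and 139 and 152 in sham libraries. In tMCAO blood Zbtb16 was above all other libraries, as were Traj per Trac and the Trbv13 share. Other genes of these lists did not share that order. Klrb1c had its highest count in tMCAO brain 2, and Trav1 had fewer counts in both tMCAO blood libraries than in either sham library. Traj18 had fewer counts in tMCAO blood 1 than in either sham library. The part of such cells in those results was not tested.

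The Trbj segments lie in 2 clusters, each before its own constant gene. Trbj1-1 led in every library except tMCAO blood 2, jointly with Trbj1-2 in tMCAO blood 1, with 27.3% and 30.1% of Trbj counts in tMCAO brain libraries, 14.7% and 3.38% in tMCAO blood libraries and 15.95% and 16.1% in sham libraries. In tMCAO blood 2 Trbj2-7 led with 14.2%. Trbj1-2 took 9.09% and 16.9% in tMCAO brain libraries, 14.7% and 6.76% in tMCAO blood libraries and 14.6% and 14.1% in sham libraries. Trbj2-1 took 18.2% and 6.44% in tMCAO brain libraries, 8.82% and 12.8% in tMCAO blood libraries and 7.57% and 5.68% in sham libraries. The first cluster as a whole took 63.6% and 84.97% in tMCAO brain libraries, 61.8% and 50% in tMCAO blood libraries and 63.2% and 67.8% in sham libraries. The highest share was in tMCAO brain 2 and the lowest in tMCAO blood 2. tMCAO brain 1 and tMCAO blood 1 held only 22 and 34 Trbj counts. All 14 Trbj members were tested and none was called, with median log2 fold changes of -3.0 in tMCAO brain and -3.46 in tMCAO blood against sham blood. The effective number was 8.88 and 6.34 in tMCAO brain libraries, 12.5 and 11.0 in tMCAO blood libraries and 10.3 and 10.8 in sham libraries, so tMCAO brain lay below both blood groups (exact permutation p = 0.333 each).

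Library 2 of tMCAO brain was set apart by its gamma and delta segments. Gamma and delta members made up 6.10% and 35.6% of all segment counts in tMCAO brain libraries, 12.4% and 6.92% in tMCAO blood libraries and 1.13% and 1.10% in sham libraries. Trdv4, a delta variable segment, had 0 and 1018 counts in tMCAO brain libraries, 4 and 3 in tMCAO blood libraries and 19 and 23 in sham libraries. It took 94.0% of the Trdv counts of tMCAO brain 2 (Wilson interval 92.4 to 95.3), where in sham blood Trdv1 led with 40.9% and 41.4%. The difference rested on that library and did not pass (tMCAO brain against tMCAO blood, log2 6.79, edgeR adjusted p = 0.145). Without tMCAO brain 2 its sign turned, to log2 -4.68 against tMCAO blood and -7.60 against sham blood. With libraries scaled to the alpha-beta constant genes it passed against tMCAO blood (log2 6.85, edgeR adjusted p = 0.0417), where 2.53% of all genes were called higher.

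**Figure D5:**
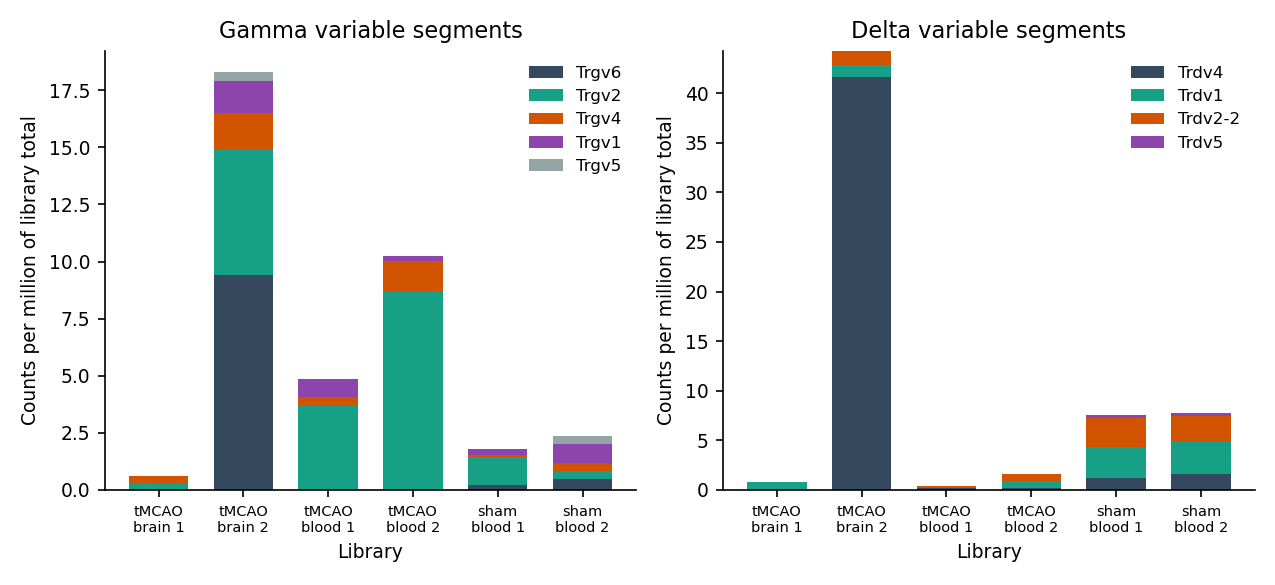
CPM of the 5 gamma (left) and 4 delta (right) variable members, stacked for each library, with tMCAO brain, tMCAO blood and sham blood from left to right. Trdv4 and Trgv6 stand out in tMCAO brain 2, and Trgv2 makes up most of the gamma variable counts of both tMCAO blood libraries.

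The gamma variable Trgv6 moved with Trdv4. It had 0 and 230 counts in tMCAO brain, 0 in both tMCAO blood libraries and 3 and 7 in sham blood. The delta joining segment Trdj1 had 0 and 33 counts in tMCAO brain libraries, 1 and 4 in tMCAO blood libraries and 4 and 6 in sham libraries. The delta constant gene Trdc had 6 and 1277 counts in tMCAO brain libraries, 8 and 27 in tMCAO blood libraries and 110 and 94 in sham libraries. All 4 delta and gamma genes were highest in tMCAO brain 2. Trdv1 had 15 and 30 counts in tMCAO brain libraries, 0 and 12 in tMCAO blood libraries and 47 and 46 in sham libraries, and Trdv2-2 had 0 and 35 in tMCAO brain libraries, 3 and 11 in tMCAO blood libraries and 44 and 38 in sham libraries. These segments did not share that peak, with their highest counts in sham blood. The fourth delta member, Trdv5, had 10 counts in all. Trdv4 and Trdj1 lie within the antisense gene Gm30275, which had 1 count in tMCAO brain 2, and Trgv6 within the antisense gene Gm31887, which also had 1. Whether the counting used strand is not given in the sources used here. Trgv6 and Trdv4 together encode the receptor of a gamma-delta T cell subset known in mice from barrier tissues.

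In the same library some other lymphocyte markers were high. Cd8a had 135 and 1040 counts in tMCAO brain libraries, 11 and 0 in tMCAO blood libraries and 21 and 123 in sham libraries. The list of 7 gamma-delta T cell markers, of which Cd163l1 was not found by that symbol, summed to 77 and 3459 counts in tMCAO brain libraries, 403 and 1877 in tMCAO blood libraries and 570 and 737 in sham libraries. Of these Sox13 was at 0 in tMCAO blood 2 and both sham libraries. Trgc2 and Trgc4 did not peak in tMCAO brain 2, with 359 and 358 counts there against 471 and 508 in tMCAO blood 2. Trgc1 had 928 counts in tMCAO brain 2, of 24460894 in that library, and 699 in tMCAO blood 2, of 16663506. The 8 B cell markers made up 0.0155% and 1.07% of counts in tMCAO brain libraries, 0.0200% and 0.0862% in tMCAO blood libraries and 0.0912% and 0.109% in sham libraries. Of the 262731 counts of that list in tMCAO brain 2, 226947 were those of Igkc. In CPM every marker of the list except Cd79b was highest in tMCAO brain 2. The part of such cells in the segment counts of tMCAO brain 2 was not tested.

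Trgv2 was the leading gamma variable segment in 4 of the 6 libraries, jointly with Trgv4 in tMCAO brain 1. Trgv2 had 6 and 135 counts in tMCAO brain libraries, 71 and 145 in tMCAO blood libraries and 19 and 5 in sham libraries, and took 50% of the 12 Trgv counts of tMCAO brain 1, 75.5% and 84.8% of the Trgv counts of tMCAO blood and 70.4% of those of sham blood 1. In tMCAO brain 2 Trgv6 led with 51.3%, and in sham blood 2 Trgv1 led with 35.3%. In CPM both tMCAO blood libraries were above both sham libraries, but the difference did not pass (log2 2.80, edgeR adjusted p = 0.210). Trgv4 had 6 and 39 counts in tMCAO brain libraries, 8 and 22 in tMCAO blood libraries and 1 and 5 in sham libraries. Trgv1 had 0 and 34 counts in tMCAO brain libraries, 15 and 4 in tMCAO blood libraries and 4 and 12 in sham libraries. The groups overlapped for Trgv1, and the remaining member, Trgv5, had 15 counts in all. Trgc2, a gamma constant gene, had 26 and 359 counts in tMCAO brain libraries, 169 and 471 in tMCAO blood libraries and 105 and 86 in sham libraries. Trgc1 had 20 and 928 counts in tMCAO brain libraries, 148 and 699 in tMCAO blood libraries and 242 and 273 in sham libraries. Trgc4 had 11 and 358 counts in tMCAO brain libraries, 60 and 508 in tMCAO blood libraries and 102 and 222 in sham libraries. Of the 3, only Trgc2 had both tMCAO blood libraries above both sham libraries in counts. The gamma joining segments were sparse, with summed counts of 54 for Trgj1, 26 for Trgj4 and 17 for Trgj2, all at 0 in tMCAO brain 1. Trgj1 had 0 and 17 counts in tMCAO brain libraries, 4 and 11 in tMCAO blood libraries and 14 and 8 in sham libraries.

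Usage profiles of the 2 libraries of a group were compared with the Morisita index, which is near 1 for equal usage and 0 for no shared segment. For Trbv it was 0.529 between the tMCAO brain libraries, 0.912 between the tMCAO blood libraries and 0.967 between the sham libraries. For Trav it was 0.437 between the tMCAO brain libraries, 0.583 between the tMCAO blood libraries and 0.916 between the sham libraries. The brain libraries resembled each other least in both classes, and each was closer to both sham libraries in Trbv usage (0.719 to 0.753) than to the other brain library. Within a group, usage differed by more than counting noise in both classes, with a chi-square per degree of freedom between 3.79 and 23.3. The Trbj libraries of tMCAO blood (0.982) and the Traj libraries of sham blood (1.25) came closest to counting noise.

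Of 24 genes of the receptor and its machinery, which include the constant genes, CD3 chains, coreceptors, proximal kinases and recombination genes, 21 were tested and 0 passed in any direction in any comparison. Their median log2 fold change was -0.48 in tMCAO brain against tMCAO blood, -1.88 in tMCAO blood against sham blood and -2.22 in tMCAO brain against sham blood, where the median of all genes was 0.06, 0.11 and 0.09. The smallest adjusted p by edgeR in these comparisons was 0.0799, 0.112 and 0.0544. The recombinase genes Rag1 and Rag2, active in developing lymphocytes, held 1 and 0 counts over all libraries. Dntt, which adds untemplated bases at the joins, had 4 and 73 counts in tMCAO brain libraries, 0 and 3 in tMCAO blood libraries and 11 and 22 in sham libraries.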

How the data were processed

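Per the labels' protocols, cDNA was made from cell lysates with a SMART-Seq ultralow input kit, tagmented with Nextera XT, amplified by PCR and sequenced paired-end at 75 bases. The deposited values are raw read counts per gene, made by the authors with STAR (version not given) and HTSeq 0.11.2 on GRCm38, per the submitters' processing notes. The strand setting, the release of the annotation and the handling of reads that fit several places or span 2 genes are not given in the sources used here. Reads across a junction of 2 segments could be lost or assigned to either.

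Libraries were grouped by title. Counts were filtered with filterByExpr (minimum count 10), scaled by TMM and tested over all genes with edgeR 4.0.16 in R 4.3.3 (quasi-likelihood test, all 6 libraries in a single fit, Benjamini-Hochberg threshold 0.05). CPM in the text use raw library totals. Shares have 95% Wilson intervals, and a group at 0 was set at a floor of 3 counts. These cover counting error only. Segments were matched to GENCODE M21, and all 258 rows were found, 8 of them through RefSeq synonyms. The gene test and the evenness measures were run on simulated data. The simulated spread between libraries was not taken from these data, so this checks the code only.

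The members, the lists and the tests were chosen with earlier results of these data known. Named segments are the leading 3 by mean share and the leader of each library in the alpha and beta classes, up to 3 by summed counts in the gamma and delta classes, up to 10 called per direction and comparison by size of change, the invariant chains, the constant genes and those nearest the count threshold. Trav14d-3-dv8, Trav7-1, Trbv21, Trbv24, Trdv5, Trgv1 and Trgv5, Trav13n-4, the genes overlapping a segment and the grouping of the Trbv13 family were chosen after their values were seen. Alternatives covered scaling, filters, DESeq2 1.42.0, limma 3.58.1, fits of 2 groups, a replicate block and leaving out each library. Division by length and expected segments over every row were added after seeing the data.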

Additional observations from a re-analysis of the deposited data

How the results depend on the processing

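Without a filter on low counts, 8 segments were called higher and 11 lower in tMCAO brain against tMCAO blood (7.7% and 3.81% of all genes), 1 higher and 62 lower in tMCAO blood against sham blood (6.69% and 4.87%), and 2 higher and 56 lower in tMCAO brain against sham blood (10.3% and 3.99%). DESeq2's Wald test called 5 higher and 9 lower in tMCAO brain against tMCAO blood (11.5% and 6.69% of all genes), 48 lower in tMCAO blood against sham blood (9.21%) and 45 lower in tMCAO brain against sham blood (6.66%). Limma-voom called 22 and 29 lower in those last 2 comparisons (3.73% and 3.63%), and fits of only the groups compared 45 and 39 (5.02% and 5.56%). With libraries scaled to the constant genes, 1 was called higher in tMCAO brain against tMCAO blood, 0 lower in tMCAO blood against sham blood, and 4 higher and 1 lower in tMCAO brain against sham blood. Leaving out 1 library of the group not compared kept 2 libraries on each side. Without tMCAO brain 1 or 2, 23 of 128 and 24 of 125 members tested were called lower in tMCAO blood against sham blood. Of all genes, 2.22% and 2.48% were. Without tMCAO blood 1 or 2, 17 of 128 and 17 of 125 were called lower in tMCAO brain against sham blood. Of all genes, 3.22% and 3.06% were. Without sham blood 1 or 2, 0 members were called in tMCAO brain against tMCAO blood. Fits that left 1 library in a compared group are not counted here, and some of them lost every call. DESeq2 size factors left every count within 1.5 times. So did the stricter filter of 5 CPM, but it tested only 30 members. It called 13 lower in tMCAO blood against sham blood (6.84% of all genes), 9 of them shared with the main fit. In tMCAO brain against sham blood it called 13 lower (4.61% of all genes), all 13 shared. The cause of these differences was not tested.

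Differences between libraries 1 and 2 correlated at 0.304 between tMCAO brain and tMCAO blood, -0.028 between tMCAO brain and sham blood and -0.070 between tMCAO blood and sham blood. Not every pair of groups passed 0.1 and no label ties the numbers, so the libraries were not taken as paired. With the replicate number as a block, 1 segment was called lower in tMCAO brain against tMCAO blood (1.36% of all genes), 16 lower in tMCAO blood against sham blood (3.3%), 10 of them shared with the 13, and 19 lower in tMCAO brain against sham blood (3.37%), 14 of them shared with the 18. The calls not shared were Trav12-1, Trav14d-3-dv8 and Trbv4 in tMCAO blood (edgeR adjusted p with the block 0.0542, 0.0596 and 0.0564) and Trav14-1, Trav7-6, Trbv30 and Trbv4 in tMCAO brain (0.0523, 0.0593, 0.0548 and 0.0774).

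The log2 difference in summed level for tMCAO brain against tMCAO blood turned to 1.26 per constant count, and ranged from -2.07 to 0.96 with each library left out. In tMCAO brain against sham blood it turned to 0.05 per constant count. Both sums include gamma and delta segments, while the constant count is that of the alpha-beta genes. The log2 fold change of Trdv4 ranged from -4.68 to 7.78 in tMCAO brain against tMCAO blood and from -7.60 to 4.86 in tMCAO brain against sham blood with each library left out. Traj evenness in tMCAO brain against sham blood turned to -4.75 by the exponential of Shannon entropy, -1.33 by expected segments at the shallowest depth (-0.590 over every row) and -2.16 with counts divided by length, and ranged from -2.34 to 2.70 with each library left out. Trbv evenness in tMCAO brain against tMCAO blood turned to -0.132 by Shannon entropy and -1.78 by expected segments (-0.852 over every row), and ranged from -0.00602 to 1.65. Trbj evenness in tMCAO blood against sham blood turned to -1.02 by Shannon entropy and -0.582 with counts divided by length. As Bray-Curtis similarity the mean overlap within groups was 0.660 for Traj and 0.780 for Trbj. The other evenness differences, those of Trav and Trbv from sham blood included, kept their direction under every alternative run, counting a larger share of the leading segment as less even. The shallowest libraries limit Traj and Trbj usage most, with 21 and 22 counts in tMCAO brain 1.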
